A study of Castanea mollissima with 18 samples.

Results

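In cultures of Chinese chestnut (Castanea mollissima), 78 of 22131 genes stood at least 2-fold higher in each of 3 callus libraries, callus 3, 4 and 5, than in any of 15 others. RNA sequencing had been done on 6 libraries labelled callus and 12 labelled somatic embryo, and the labels give a tissue and a running number but no line, age, medium or stage. The sample titles also share short codes whose meaning is not given. Total RNA was made into strand-specific libraries, and expression was deposited as FPKM, fragment counts corrected for gene length and library size. The 78 members were chosen by their values in these same libraries. On the scale log2(FPKM + 1), the lowest of callus 3, 4 and 5 had to exceed the highest of the other 15 libraries by at least 1, among genes with 1 FPKM or more in at least 3 of the 18. All 78 therefore passed that filter on low values, 11 of them through callus 3, 4 and 5 alone, and the high level in these libraries is the rule and not a finding. The members are 0.352% of the genes, and 5.06% of all genes stood higher in callus 3, 4 and 5 by any amount.

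Callus is a mass of dividing, little organised cells that plant tissue forms in culture, usually on a medium with auxin and cytokinin. Somatic embryos form from body cells without fertilisation and pass through shapes like those of embryos in seeds. Cultures of a species can differ in whether the callus goes on to form embryos. Genes that neighbour each other in a plant genome are often copies of one another, made by tandem duplication, and such copies can share reads. Neither gene names nor descriptions come with the IDs, and no reference was used, so no role is given to any member and the tissue labels could not be set against marker genes.

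The libraries fall into 6 sets of 3 that the labels do not name: callus 3, 4, 5; callus 1, 2, 6; and somatic embryo 1, 4, 12; 2, 3, 11; 5, 6, 7; and 8, 9, 10. These sets come from earlier results of the same data. Spearman's correlation across genes was at least 0.9945 within callus 3, 4 and 5, and at most 0.916 between any of them and another library. In somatic embryo 1, 4, 12 the lowest correlation within the set was 0.935, under the highest with a library outside it, 0.942. That set is thus not cleanly apart, while in the other sets the lowest within exceeded the highest outside. Nothing says that the libraries of a set came from separate cultures, so p-values measure only the spread between libraries, which may be technical, and come out too small where close libraries are counted separately. A library had 18555 to 19911 IDs at 1 FPKM or more, and read depth is unknown.

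In callus 3, 4 and 5 the members covered a wide range of expression, with means from 2.30 to 817 FPKM and a median of 23.7 FPKM, against a median of 12.5 FPKM over all 22131 genes. They held 0.475%, 0.502% and 0.510% of the summed FPKM in callus 3, 4 and 5, against 0.111% to 0.122% in callus 1, 2 and 6 and 0.0256% to 0.106% in the somatic embryo libraries. In bulk tissue, fewer cells of a type and less RNA per cell cannot be told apart. The smallest ratio of the lowest of callus 3, 4 and 5 to the highest other library was 2.04, the median was 3.82 and the largest was 12.4.

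**Figure D1:**
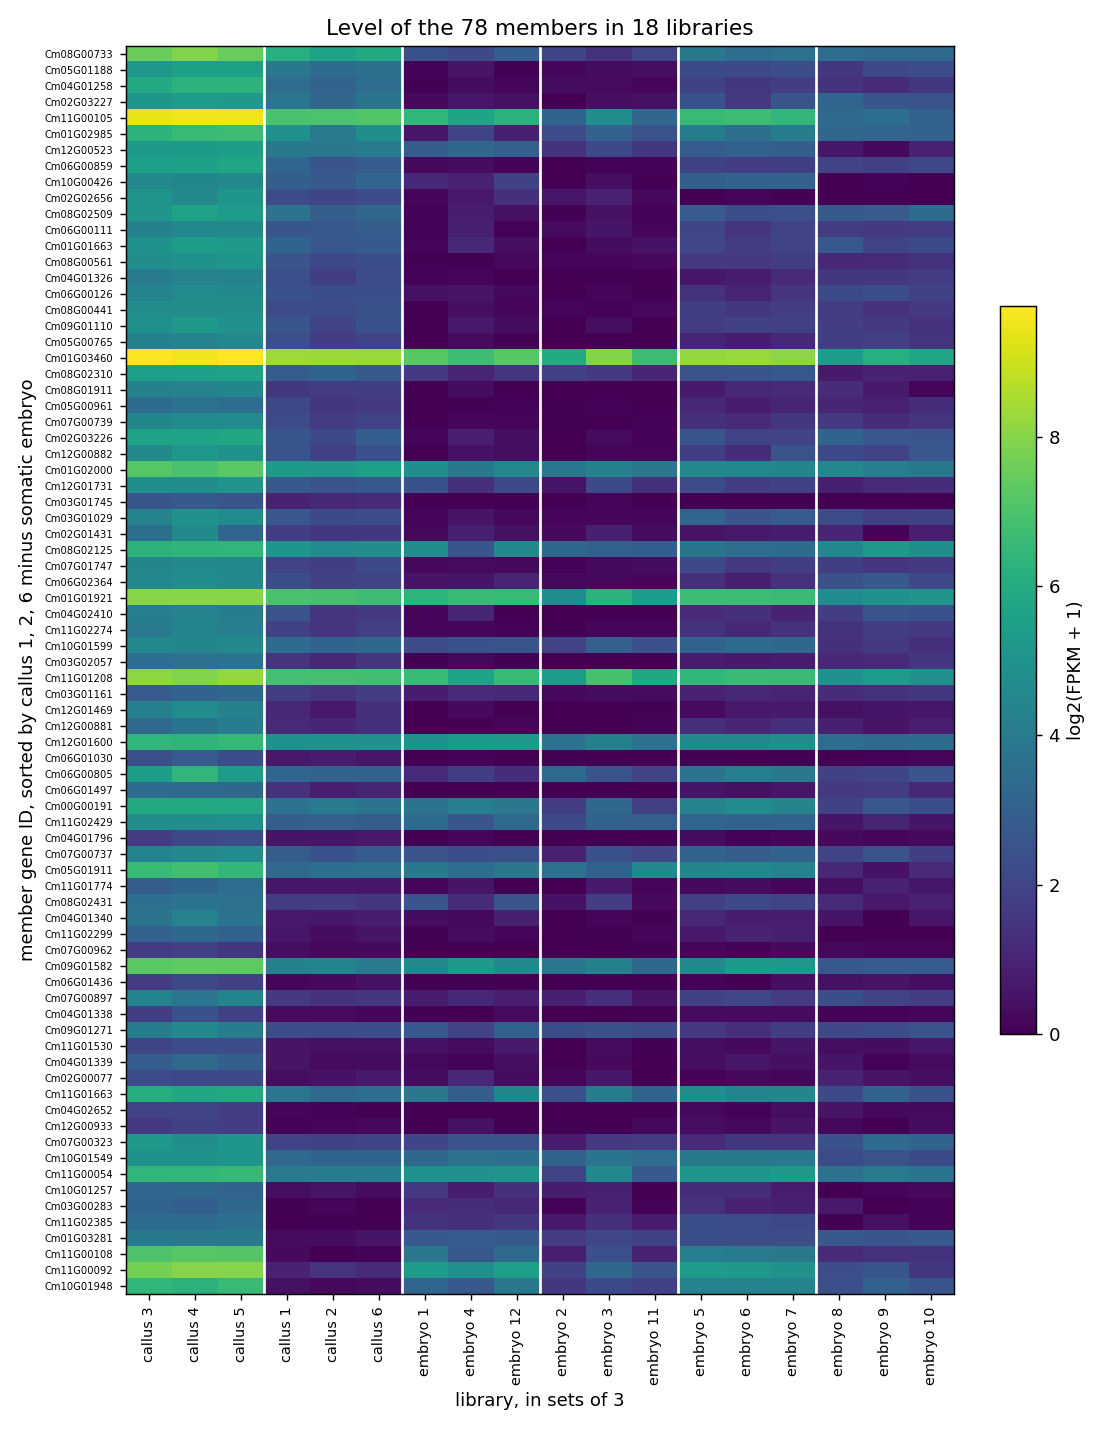
Level of each of the 78 members (rows) in each of the 18 libraries (columns, in sets of 3 divided by white lines) as log2(FPKM + 1), shown by colour. Rows are sorted by the difference between callus 1, 2, 6 and somatic embryo, and the 3 left columns are the libraries whose values chose the members.

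The most abundant member was Cm01G03460, at 837, 751 and 862 FPKM in callus 3, 4 and 5. It had 322, 310 and 301 FPKM in callus 1, 2 and 6, and a lowest, median and highest value of 40.8, 126 and 299 FPKM in the 12 somatic embryos. No library was near 0 for this gene, and somatic embryo 6 lay only just under callus 6. Next came Cm11G00105, at 681, 728 and 724 FPKM in callus 3, 4 and 5, against 122, 128 and 136 FPKM in callus 1, 2 and 6. Its somatic embryo values ran from 7.13 to 105 FPKM with a median of 38.7 FPKM, under 11 FPKM in 2, 8, 9, 10 and 11 and highest in 6. Cm11G01208 had 275, 242 and 285 FPKM in callus 3, 4 and 5, 115, 116 and 110 FPKM in callus 1, 2 and 6, and 29.6 to 118 FPKM in somatic embryos. In Cm01G01921 the values were 257, 262 and 259 FPKM in callus 3, 4 and 5, 124, 119 and 105 FPKM in callus 1, 2 and 6, and 25.9 to 104 FPKM in somatic embryos. Both of these were expressed in every library and stood near the threshold, with gaps of 1.03 and 1.05 (log2).

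The widest gap to the other 15 libraries, 2.88 (log2), belonged to Cm12G01469. This gene had 17.4, 26.1 and 18.1 FPKM in callus 3, 4 and 5, against 1.17, 0.58 and 1.5 FPKM in callus 1, 2 and 6 and 0 to 0.64 FPKM in somatic embryos. Cm08G01911 was much alike, at 18.3, 18.9 and 21.3 FPKM in callus 3, 4 and 5, 2.01, 2.30 and 2.49 FPKM in callus 1, 2 and 6, and 0 to 1.36 FPKM in somatic embryos. Both genes were close to silent in most somatic embryos. No member was listed at 0 in all of the other 15 libraries, and 34 were listed at 0 in at least 1. The most zeros, 11 of 15, were in Cm03G01745, with 5.17, 5.80 and 4.94 FPKM in callus 3, 4 and 5 and 0.91, 1.11 and 1.28 FPKM in callus 1, 2 and 6. Of the somatic embryos only number 3, at 0.14 FPKM, had a value above 0 for Cm03G01745. Cm04G02652 was listed at 0 in 7 of the 15, and had 2.88, 3.04 and 2.45 FPKM in callus 3, 4 and 5 and at most 0.41 FPKM elsewhere. At the other end, 16 members reached 1 FPKM in all 18 libraries.

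Outside callus 3, 4 and 5, the median level over the members was highest in callus 1, 2 and 6, followed by somatic embryo 5, 6, 7 and then 8, 9, 10. It was lowest in somatic embryo 1, 4, 12 and 2, 3, 11, though 34 and 28 members had means of at least 1 FPKM there. Single members did not all follow this order. As a share of its mean in callus 3, 4 and 5, the median member stood at 13.9% in callus 1, 2, 6. The median share was 2.74% in somatic embryo 1, 4, 12, 1.37% in 2, 3, 11, 10.2% in 5, 6, 7 and 7.42% in 8, 9, 10. Members with a mean under 1 FPKM numbered 19 in callus 1, 2, 6, then 44, 50, 22 and 28 in somatic embryo 1, 4, 12, 2, 3, 11, 5, 6, 7 and 8, 9, 10. The most members below 1 FPKM were thus in somatic embryo 2, 3, 11, and the fewest in callus 1, 2, 6.

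**Figure D2:**
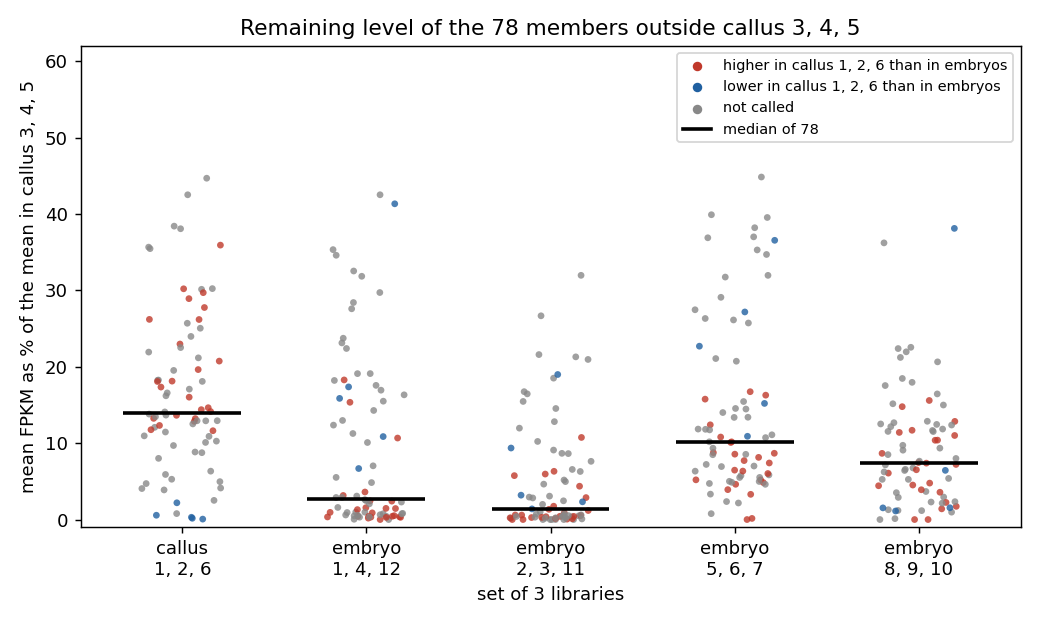
Mean FPKM of each of the 78 members in the other 5 sets of 3 libraries, as a percentage of its mean in callus 3, 4, 5. Points are members, coloured by the limma call between callus 1, 2, 6 and somatic embryo, and black lines are medians, from 13.9% in callus 1, 2, 6 to 1.37% in somatic embryo 2, 3, 11.

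The order among these 5 sets was not fixed by the rule. Callus 1, 2, 6 had the highest mean in 39 of 78 members (50%), against 33.2% of all genes, and somatic embryo 5, 6, 7 in 19 members (24.4%), against 14.2%. The lowest mean was in somatic embryo 2, 3, 11 in 39 members (50%), against 28.2% of all genes, and this set was the highest in 0 members, against 10.8%. Somatic embryo 8, 9, 10 had the lowest mean in 20 members (25.6%), against 20.1% of all genes. Among the embryo sets alone, 5, 6, 7 exceeded both 1, 4, 12 and 2, 3, 11 in 60 members (76.9%), against 36.5% of all genes. Sets 5, 6, 7 and 8, 9, 10 each exceeded both 1, 4, 12 and 2, 3, 11 in 37 members (47.4%), against 17.7% of all genes. Library by library, the single highest value outside callus 3, 4 and 5 was in callus 1, 2 or 6 in 38 members and in a somatic embryo in 40. These counts set 3 callus libraries against 12 somatic embryo libraries, and no share over all genes is given for them. These shares describe the list and were not tested.

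Whether callus 1, 2 and 6 also stood above somatic embryo was tested without callus 3, 4 and 5, since the rule had not fixed that direction. The rule did cap the other 15 libraries relative to callus 3, 4 and 5. Members were thus chosen partly by their values here and all genes were not, so the shares set side by side are a description. By limma on log2(FPKM + 1) over all 22131 genes, with calls set at a 2-fold difference and a Benjamini-Hochberg adjusted p below 0.05, 24 of the 78 members (30.8%) were higher in callus 1, 2 and 6 and 5 (6.41%) were lower. Over all genes 15.0% were higher, 11.5% were lower and 26.4% were called in either direction. The share of members is partly set by the filter: the 11 members that passed it through callus 3, 4 and 5 alone were under 1 FPKM in all of the other 15 libraries, where a difference of 1 on log2(FPKM + 1) cannot be reached. Only 30 of all 22131 genes were that low. These 11 could not be called, whatever their p, and 2 of them had an adjusted p below 0.05. Of the other 67 members, 38 did not pass. The median log2 difference was 0.85 for the members and 0.10 for all genes, and 66 members had a difference above 0 and 12 below. All 3 callus libraries lay above all 12 somatic embryos in 25 members (32.1%), against 23.6% of all genes, and below all of them in 4 members (5.13%), against 15.2%. Calls among members depended on few libraries: without callus 1 they numbered 14, without callus 6 also 14, and without callus 2 they numbered 20. Over all genes, in the same order, calls went from 5851 to 4956, 4878 and 4924. Members called higher fell from 24 to 11, 12 and 18, and all genes called higher from 3317 to 2931, 2939 and 2971. Members called lower fell from 5 to 3, 2 and 2, and all genes called lower from 2534 to 2025, 1939 and 1953. When each set of 3 was reduced to its mean, leaving 1 callus mean, assumed to vary as the embryo means do, against 4 embryo means, limma called 0 members (11 at an unadjusted p under 0.05) and 1055 of all genes.

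**Figure D3:**
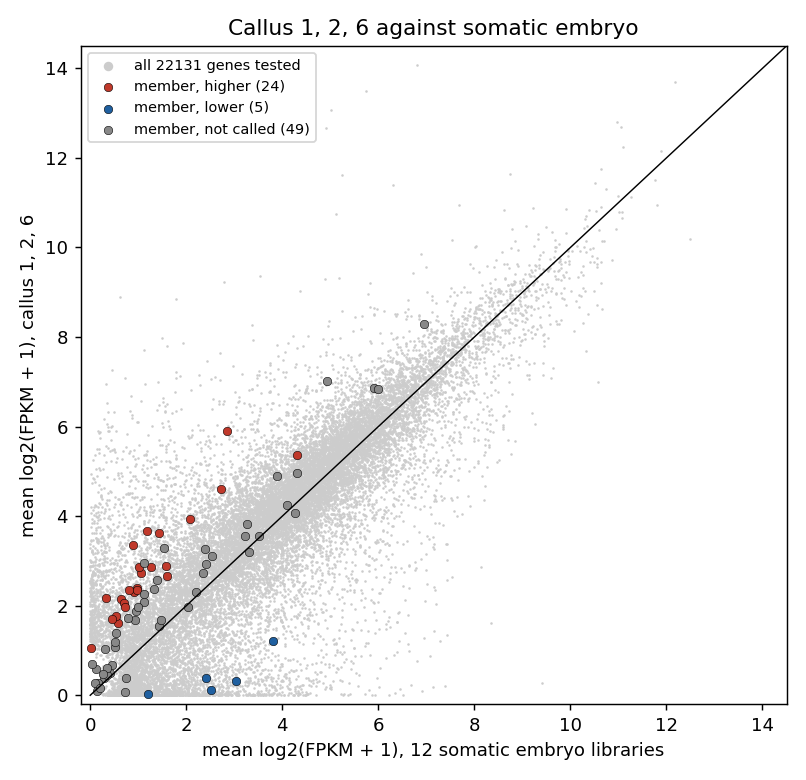
Mean log2(FPKM + 1) of each gene in callus 1, 2, 6 (vertical axis) against the 12 somatic embryo libraries (horizontal axis), with the line of equal levels. The 24 members called higher in callus 1, 2, 6 lie above the line, the 5 called lower lie below it, and grey dots are all 22131 genes.

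The largest rises were in Cm08G00733 and Cm05G01188. Cm08G00733 had 183, 236 and 180 FPKM in callus 3, 4 and 5. It had 69.2, 49.7 and 58.9 FPKM in callus 1, 2 and 6, against a lowest, median and highest value of 1.68, 7.81 and 14.4 FPKM in somatic embryos. The 2 callus sets and the embryos did not overlap, and the log2 difference between callus 1, 2, 6 and embryos was 3.04 ± 0.45 (SE; limma adjusted p = 6.2e-05). Cm05G01188 had 35.7, 46.2 and 45.4 FPKM in callus 3, 4 and 5. Its values were 14.3, 9.87 and 11.2 FPKM in callus 1, 2 and 6, against 0.05, 1.21 and 4.05 FPKM as lowest, median and highest in somatic embryos (log2 difference 2.47 ± 0.56 SE, limma adjusted p = 0.0024). With set means, these calls were lost, at limma adjusted p = 0.10 and 0.25. Cm04G01258 showed the same order, at 62.03, 77.4 and 79.1 FPKM in callus 3, 4 and 5, 10.1, 7.59 and 10.4 FPKM in callus 1, 2 and 6, and 0.05 to 2.78 FPKM in somatic embryos (log2 difference 2.47 ± 0.42 SE, limma adjusted p = 0.00021, and 0.15 with set means). Cm03G01745, described above, was also called (log2 difference 1.05 ± 0.08 SE, limma adjusted p = 4.0e-08), and lost the call without callus 6, where its difference was 0.99. The most abundant members were not among those called: the log2 difference was 1.33 ± 0.56 (SE) in Cm01G03460 and 2.08 ± 0.86 (SE) in Cm11G00105, at limma adjusted p of 0.068 and 0.065. These genes passed in some other settings: with all 18 libraries in the limma fit, at adjusted p of 0.047 and 0.044, by an exact rank-sum test at 0.011 each, and by limma without somatic embryo 5, 6, 7 at 0.0086 and 0.016. Leaving out somatic embryo 5 or 6 alone also brought both below 0.05, at 0.045 and 0.043 for Cm01G03460 and 0.048 and 0.045 for Cm11G00105, as did leaving out 7 for Cm01G03460 at 0.049. In most settings, 25 and 26 of 32, they stayed uncalled. Without callus 1, 2 or 6, limma adjusted p was 0.17, 0.16 and 0.15 for Cm01G03460 and 0.15, 0.15 and 0.16 for Cm11G00105. Without somatic embryo 8, 9, 10 it was 0.10 and 0.12, and the log2 difference of Cm01G03460 was 0.93. In both of them callus 1, 2 and 6 all lay above the 12 somatic embryos, which were far apart among themselves.

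The 5 members called lower took another course: they had at most 1.79 FPKM in callus 1, 2 and 6, and more in somatic embryos on average. Cm10G01948 had 87.4, 75.5 and 93.0 FPKM in callus 3, 4 and 5. In callus 1, 2 and 6 it had 0.35, 0.15 and 0.26 FPKM, against 1.95, 6.45 and 19.8 FPKM as lowest, median and highest in somatic embryos (log2 difference -2.72 ± 0.55 SE, limma adjusted p = 0.0011). Its somatic embryo values were highest in 5, 6 and 7, at 19.1, 19.2 and 19.8 FPKM. With set means its limma adjusted p was 0.20. Cm11G00092 had 207, 251 and 252 FPKM in callus 3, 4 and 5, and 0.98, 1.79 and 1.23 FPKM in callus 1, 2 and 6, against 1.93, 19.0 and 43.9 FPKM in somatic embryos. Here the lowest embryo lay just above the highest of callus 1, 2 and 6 (log2 difference -2.59 ± 0.85 SE, limma adjusted p = 0.024), and the call was lost without callus 1, 2 or 6, at limma adjusted p of 0.088, 0.063 and 0.080. Cm11G00108 had 130, 149 and 139 FPKM in callus 3, 4 and 5, and 0.18, 0 and 0.06 FPKM in callus 1, 2 and 6, against 0.78 to 17.1 FPKM in somatic embryos (log2 difference -2.40 ± 0.72 SE, limma adjusted p = 0.015). Without callus 2 and without callus 6 its limma adjusted p was 0.059 and 0.055. The other two were named after their values were seen. Cm01G03281 had 14.45, 14.14 and 14.28 FPKM in callus 3, 4 and 5, and 0.22, 0.24 and 0.48 FPKM in callus 1, 2 and 6, against 2.30 to 6.14 FPKM in somatic embryos (log2 difference -2.02 ± 0.24 SE, limma adjusted p = 6.0e-06). Unlike the rest it was rather even over the embryos. Cm11G02385 had 9.76, 9.69 and 10.67 FPKM in callus 3, 4 and 5, and 0.02, 0.03 and 0 FPKM in callus 1, 2 and 6, against 0.03 to 4.04 FPKM in somatic embryos (log2 difference -1.17 ± 0.44 SE, limma adjusted p = 0.045). The call was lost without callus 1, 2 or 6, at limma adjusted p of 0.119, 0.118 and 0.124, and also without somatic embryo 1, 3, 4, 5, 6, 7 or 12, at 0.052 to 0.059. Somatic embryo 8, 9 and 10 were low, at 0.03, 0.37 and 0.06 FPKM, and only embryo 8 was not above callus 1, 2 and 6, being level with callus 2.

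Some members shared a profile over the sets of the 15 libraries that lie below callus 3, 4 and 5, and others did not. Pearson's correlation with the median profile of the other members was at least 0.9 in 22 of 78 members and at least 0.8 in 31, while 0.340% of the genes that are no members reached 0.9 and 2.81% reached 0.8. The median over the members was 0.62, and 11 members had a correlation below 0. With the means of the sets taken away, 0 members reached 0.9 and 1 reached 0.8, with a median of 0.41, against 0.08 in the other genes. The points share their sets of 3 libraries, and members were compared with a profile made from the same list, so this is a description. Cm09G01110, named as the member with the highest correlation (0.99), had 28.4, 37.4 and 29.2 FPKM in callus 3, 4 and 5 and 5.05, 3.02 and 4.51 FPKM in callus 1, 2 and 6. In somatic embryos it had 2.42, 2.7 and 2.61 FPKM in 5, 6 and 7, and 2.41, 2.16 and 1.62 FPKM in 8, 9 and 10. In the other 6 embryos it had at most 0.59 FPKM.

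The 22 members were picked for that likeness, so their proportions between sets are given as a description. Relative to callus 3, 4, 5, their means ran from 8.84% to 30.2% in callus 1, 2, 6 (quartiles 12.9% and 17.9%). They ran from 3.30% to 25.7% in somatic embryo 5, 6, 7 (quartiles 6.37% and 9.90%) and from 2.24% to 18.0% in 8, 9, 10 (quartiles 6.69% and 12.1%). All 22 had means under 1 FPKM in somatic embryo 1, 4, 12 and 2, 3, 11, at 0.183% to 1.46% and 0% to 1.18% of callus 3, 4, 5. The other 56 members ran from 0% to 42.5% in somatic embryo 1, 4, 12. Outside the members, 75 genes reached a correlation of 0.9 with that profile. Of these, 15 (20%) stood higher in callus 3, 4 and 5 than in any other library by some amount, against 5.06% of all genes. In only 24 of the 75 the mean log2(FPKM + 1) of callus 3, 4, 5 exceeded that of callus 1, 2, 6. Over all genes, 50.9% had the higher mean FPKM in callus 3, 4, 5.

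Libraries of a set also differed in the members, by small amounts in the callus sets and by more in some embryo sets. The range over the 3 libraries was 1 or more (log2) in 15 members in somatic embryo 2, 3, 11 and in 9 in 1, 4, 12. It was so in 1 member in 5, 6, 7 and in 2 in 8, 9, 10. The median range was 0.35 in members and 0.46 in all genes in 2, 3, 11, and 0.41 and 0.48 in 1, 4, 12. Its 90th percentile was 1.53 in members and 1.22 in all genes in 2, 3, 11, and 1.06 and 1.34 in 1, 4, 12. Wide ranges in these sets were thus not particular to the members, and the share of all genes at 1 or more was not counted. In callus 1, 2 and 6, callus 2 was the lowest in 48 of 78 members, against 35.0% of all genes, and callus 1 was the highest in 41, against 35.0%. In callus 3, 4 and 5, callus 3 was the lowest in 45 members and the highest in 6, against 33.6% and 31.2% of all genes. The median difference between the highest and the lowest library of callus 3, 4 and 5 was 0.27 (log2) in members and 0.16 in all genes, and the rule's use of the lowest library bears on this value. Only 2 members differed by 1 or more within callus 3, 4 and 5. The wider of them, named after its values were seen, was Cm02G01431, at 11.0, 24.2 and 8.03 FPKM in callus 3, 4 and 5, highest in callus 4. It had 2.42, 1.89 and 1.90 FPKM in callus 1, 2 and 6 and 0.06 to 1.09 FPKM in somatic embryos.

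Some members sat side by side in the numbering of the IDs. Each ID holds a prefix, Cm00 to Cm12, and a running number, and the table gives no coordinates, so only order and not distance is known. A further member stood within 5 numbers in 11 of the 78 members (14.1%), while 2.27% of all 22131 genes had a member that near. For the very next number the counts were 7 members (8.97%) and 0.511%, and within 20 numbers 15 members (19.2%) and 8.46%. Members came from all 13 prefixes, with 12 in Cm11 (15.4% of members, 7.49% of genes) and 6 in Cm01 (7.69% of members, 14.7% of genes). These shares were not tested.

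**Figure D4:**
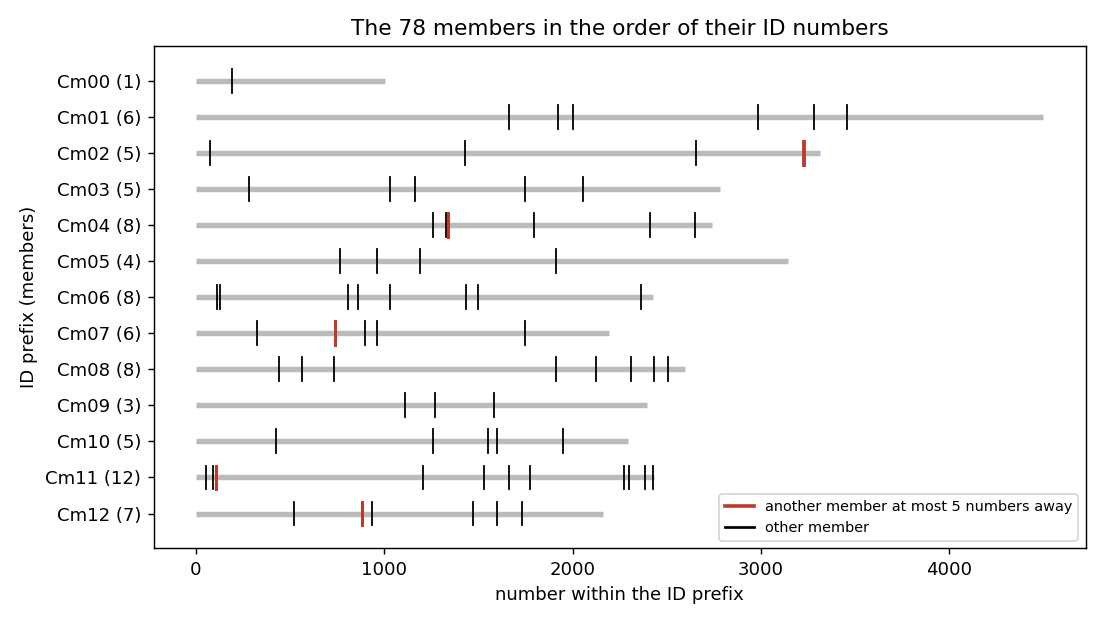
The 78 members as ticks in the order of their ID numbers within each prefix, with grey lines over the range of numbers in the table and the count of members in parentheses. The 11 members with another member at most 5 numbers away are red.

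The 11 members formed 5 groups. Cm04G01338, Cm04G01339 and Cm04G01340 followed one another and were low everywhere but in callus 3, 4 and 5, where they had 2.5, 4.43 and 2.73 FPKM, 6.07, 9.32 and 6.79 FPKM, and 12.4, 19.0 and 12.2 FPKM. In all 3 genes callus 4 was the highest. In callus 1, 2 and 6 they had at most 0.22, 0.42 and 0.66 FPKM, and in somatic embryos at most 0.23, 0.49 and 1.16 FPKM. The next ID down, Cm04G01337, had a mean of 2.77 FPKM in callus 3, 4, 5 and 9.83 FPKM in callus 1, 2, 6. The next ID up, Cm04G01341, was at most 0.02 FPKM in any library, so neither flanking ID, shown for its position, had the members' pattern. Close copies can share reads, and whether these 3 genes are copies was not tested.

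Cm02G03226 and Cm02G03227 also followed one another. Cm02G03226 had 49.1, 50.1 and 57.2 FPKM in callus 3, 4 and 5, 5.08, 3.48 and 6.60 FPKM in callus 1, 2 and 6, and 0 to 7.84 FPKM in somatic embryos. Cm02G03227 had 35.1, 41.1 and 37.7 FPKM in callus 3, 4 and 5, 13.1, 8.28 and 13.0 FPKM in callus 1, 2 and 6, and 0 to 8.01 FPKM in somatic embryos. Both were highest among the embryos in number 8 and lowest in number 2, and their correlation over the 15 libraries was 0.94. Only Cm02G03227 was called higher in callus 1, 2, 6 than in embryos (log2 difference 2.19 ± 0.65 SE, limma adjusted p = 0.014, and 0.062 without callus 1 or without callus 6). For Cm02G03226 the log2 difference was 1.18 ± 0.67 (SE; limma adjusted p = 0.17). It was called without somatic embryo 8, 9, 10, at limma adjusted p = 0.027, and against somatic embryo 1, 2 and 6 alone, at a log2 difference of 1.85 and a limma adjusted p of 0.045. Whether the genes differ from each other in this was not tested.

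In Cm12G00881 and Cm12G00882, again adjacent, the values were 9.29, 12.7 and 16.1 FPKM and 24.1, 36.0 and 30.4 FPKM in callus 3, 4 and 5. They were 1.31, 1.06 and 1.47 FPKM and 4.83, 2.64 and 4.22 FPKM in callus 1, 2 and 6, and at most 1.53 and 5.27 FPKM in somatic embryos, with a correlation of 0.88 over the 15 libraries. The ID after them, Cm12G00883, was no member but also stood higher in callus 3, 4 and 5, by 0.60 (log2). Cm07G00737 and Cm07G00739 are separated by Cm07G00738, which was even across the sets, at 13.2 FPKM in callus 3, 4, 5, 11.2 FPKM in callus 1, 2, 6 and 12.5 to 17.8 FPKM in the embryo sets. Cm07G00737 had 20.2, 22.8 and 25.1 FPKM in callus 3, 4 and 5, 6.38, 4.48 and 6.18 FPKM in callus 1, 2 and 6, and 0.96 to 7.71 FPKM in somatic embryos. Cm07G00739 had 21.4, 25.01 and 25.5 FPKM in callus 3, 4 and 5, 3.72, 2.26 and 2.88 FPKM in callus 1, 2 and 6, and 0 to 2.12 FPKM in somatic embryos. Their levels in callus 3, 4 and 5 were close, but Cm07G00739 was nearly off in 6 of the embryos where Cm07G00737 was not, and their correlation over the 15 libraries was 0.44. Cm07G00739 was called higher in callus 1, 2, 6 than in embryos (log2 difference 1.23 ± 0.40 SE, limma adjusted p = 0.021, and 0.10 without callus 1 and 0.069 without callus 6).

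The last group, Cm11G00105 and Cm11G00108, encloses 2 IDs listed at 0 in every library. These 2 members parted in callus 1, 2, 6, where their means were 129 and 0.08 FPKM, against 711 and 139 FPKM in callus 3, 4, 5 and 47.5 and 7.00 FPKM over the 12 somatic embryos. The IDs just before them, Cm11G00103 and Cm11G00104, were also listed at 0 in callus 1, 2 and 6, with means of 12.0 and 4.59 FPKM in callus 3, 4, 5 and 2.03 to 9.98 FPKM in the embryo sets. Cm11G00103, Cm11G00104 and Cm11G00108 thus shared a level at or near 0 in callus 1, 2, 6, with means of at least 1.56 FPKM in each other set.

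**Figure D5:**
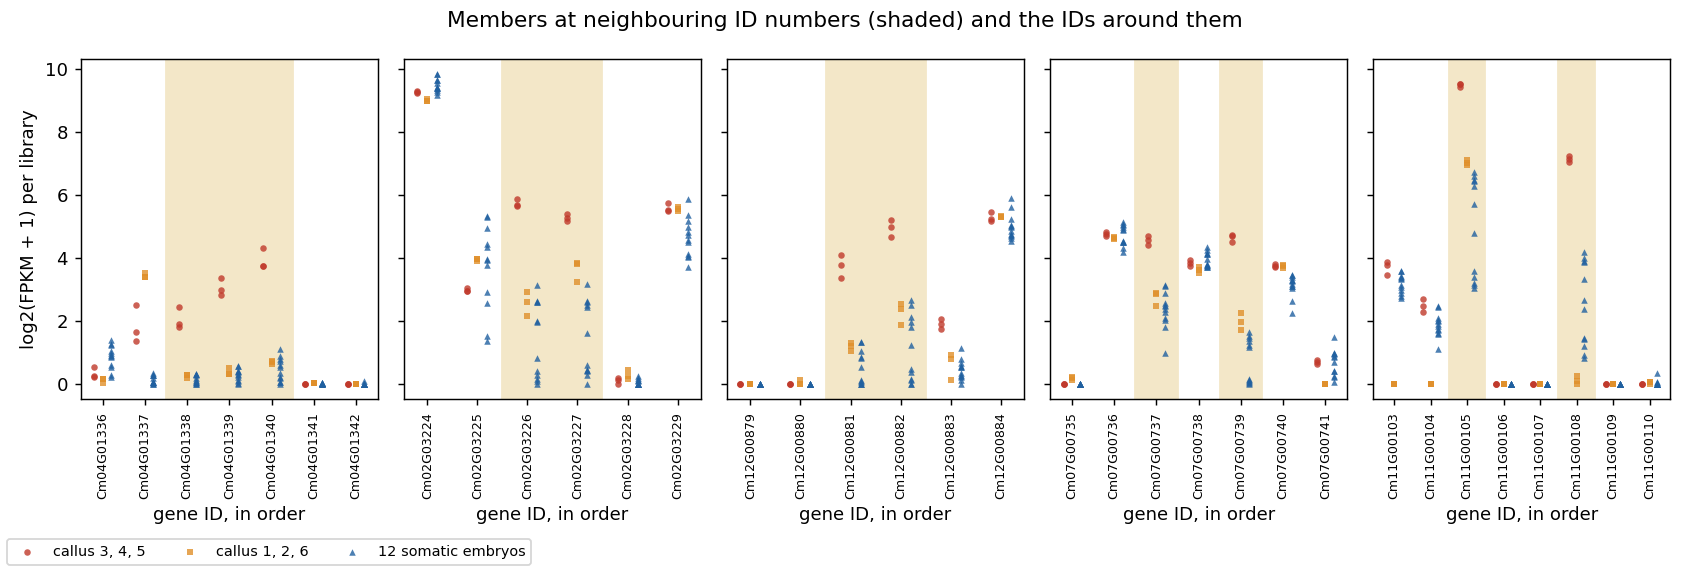
Level as log2(FPKM + 1) of the 5 groups of members at neighbouring ID numbers (shaded) and of the IDs around them, with a point for each library. Circles are callus 3, 4, 5, squares callus 1, 2, 6 and triangles the 12 somatic embryos, and genes beside the shaded members mostly show other patterns.

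Close to the threshold, members and other genes differed little. The last genes inside were Cm03G01161 and Cm02G00077, with gaps of 1.00 and 1.01 (log2). Cm03G01161 had 5.95, 7.67 and 8.51 FPKM in callus 3, 4 and 5, against 2.47 FPKM in callus 1, the highest other library. For Cm02G00077 the values were 3.77, 3.29 and 3.46 FPKM, against 1.13 FPKM in somatic embryo 4. The first genes outside, Cm09G00238 and Cm09G01787, both had gaps of 0.99. Cm09G00238 had 29.7, 33.6 and 31.0 FPKM in callus 3, 4 and 5, against 14.49 FPKM in somatic embryo 6. Cm09G01787 had 7.86, 8.58 and 19.6 FPKM, against 3.47 FPKM in somatic embryo 4, and at most 0.15 FPKM in callus 1, 2 and 6. A gap of at least 1.5 was met by 37 genes, and one of at least 2 by 22. By the same rule, 832 genes stood above all others in callus 1, 2, 6, and 38, 52, 143 and 360 in somatic embryo 1, 4, 12, 2, 3, 11, 5, 6, 7 and 8, 9, 10.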

How the data were processed

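The authors deposited FPKM values with 2 decimals in a single table of 33991 gene IDs and 213 sample columns. The submitters' processing notes name FastQC 0.11.9, Trimmomatic and STAR 2.7.10b, without settings. The sources used here do not give the genome build, the annotation or the program that computed FPKM. Values were read from the 18 columns whose names match sample titles, leaving 195 unused. Groups come from the tissue label. The members, the sets of 3 and the lists were chosen with earlier results of these data known.

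Values were transformed to log2(FPKM + 1), which understates folds of low genes. Callus 1, 2 and 6 were compared with 12 somatic embryos with limma 3.58.1 (trend and robust settings, statmod 1.5.0, R 4.3.3) on the 22131 genes with at least 1 FPKM in 3 or more libraries. Calls need a Benjamini-Hochberg adjusted p under 0.05 over all genes and a log2 difference of at least 1. The procedure was run on simulated data in which libraries varied independently, without sets of 3. That run therefore says nothing on p-values made too small by close libraries. Named genes are the members with the highest means, the widest gaps, the largest called differences, the most zeros, a place beside the threshold or a neighbouring member, and the exceptions are marked in the text. Depth is unknown, so no counting interval is given. The table was summarised with Python 3.11.15 and pandas 2.3.3. Alternatives covered pseudocounts, filters, scaling, test settings, the replicate block and leaving out libraries; leaving out embryo sets and using set means were chosen after seeing the data.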

Additional observations from a re-analysis of the deposited data

How the results depend on the processing

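The number of members, 78, ranged from 67 to 96 with a pseudocount of 0.1, other filters, other scalings, 1 library left out (67 to 84) or the mean of callus 3, 4, 5 in place of the lowest, and was 189 with a gap of 0.5 and 22 with a gap of 2. Members with another member within 5 numbers, 11, became 18 with a pseudocount of 0.1, 33 with a gap of 0.5, 6 with a gap of 2 and 7 for the next number alone, and 8 to 14 with 1 library left out. Genes called between callus 1, 2, 6 and somatic embryo, 5851, were 3578 where a mean of 5 FPKM was asked for and 9088 with no fold threshold, the first over fewer genes and the second by a looser rule, and 4878 to 5945 with 1 library left out. Members called, 29, were 17 with a pseudocount of 0.01, where the cause was not tested, and 14 to 31 with 1 library left out. The set means, added after the data were seen, gave 1055 genes and 0 members, with fewer points in the fit. Median-of-ratios scaling moved the median of all genes from 0.10 to -0.02 and left 21 members higher and 5 lower. With the replicate block on the shared numbers 1, 2 and 6, 5560 genes and 32 members were called, against 5599 and 31 without the block on these samples. On these samples limma called Cm02G03226 and Cm12G00882 higher, at adjusted p of 0.020 and 0.015 with the block and 0.045 and 0.014 without it, and Cm11G00092 was at 0.0501 with the block. No callus correlated best with its own number. The direction held under the settings run for 28 of the 29 named members, and not for Cm04G02652, whose difference of -0.04 became 0.16 with a pseudocount of 0.01, -0.082 to 0.0059 with 1 library left out (the highest without callus 6), 0.059 on the shared numbers with or without the block and 0.019 without somatic embryo 8, 9, 10. Read depth is unknown, so values near 0 carry no stated limit.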
